A study of Homo sapiens with 17 samples.

Results

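The genes described here are 37 genes of lipid synthesis: the enzymes that build cholesterol from acetyl-CoA, the enzymes that build and modify fatty acids, the SREBP transcription factors that control both, the proteins that hold SREBP in check, and a few carriers of cholesterol. They were taken from a fixed list of gene symbols, with no measured value in the rule, and all 37 were found among the 19141 genes of the count table. The cells were YB5, a human colorectal line derived from SW48 that carries 1 insertion of a green fluorescent protein gene behind a methylated, silent viral promoter, so every result below belongs to 1 line. They received either the solvent DMSO (8 libraries) or toyocamycin at 250 nM (9 libraries), an adenosine analogue that the study examined as an inhibitor of the transcription kinase CDK9, and their polyadenylated RNA was sequenced. Each arm held 2 libraries at 2 h and 1 library each at 24 h and 48 h, and 3 libraries at the last time point. At 10 h there was 1 DMSO library (replicate 2) and there were 2 toyocamycin libraries. The labels give the last time point as 72 h and the study's text as 96 h, and 72 h is used here. Replicate 2 of 2 h and of 10 h (4 libraries) carries the label of a second batch, and the other 13 libraries carry that of the first.

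SREBP-2, encoded by SREBF2, mainly drives the genes of cholesterol synthesis, and SREBP-1, encoded by SREBF1, mainly those of fatty acid synthesis. Both are made as membrane proteins of the endoplasmic reticulum. When sterols are low the escort protein SCAP carries them to the Golgi, where proteases release the part that enters the nucleus; when sterols are high INSIG1 or INSIG2 binds SCAP and keeps it in place. INSIG1 is itself an SREBP target, and proliferating tumour cells commonly make their own fatty acids and cholesterol.

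SREBP binds DNA together with general factors such as NF-Y, which reads the CCAAT box, and Sp1, which reads the GC box GGGCGG. RefSeq promoter sequences (GRCh38.p14, 250 bases before to 50 bases after the annotated start) were matched for 33 of the 37 genes, all but ACAT2, FASN, FDFT1 and SQLE. The sterol element TCACNCCAC, read on both strands, was present in 1 of the 33, SREBF2 itself (3.03%), against 1.15% of all 27305 promoters in the table and 1.09% of the 11589 whose genes were tested. A CCAAT box was present in 19 of 33 (57.6%), against 35.7% of all promoters and 36.3% of those of tested genes. GGGCGG was present in 31 of 33 (93.9%), against 44.6% and 67.6%. These are matches of letters in a fixed window and not sites. Promoters of 4 genes are shown because SREBF2 and LSS fell and MSMO1 and INSIG1 rose; the 250 bases before the start are printed 5′ to 3′ on the gene's strand, with TCACNCCAC and CCAAT matches of either strand in capitals.
SREBF2, plus strand, chr22:41832855-41833104: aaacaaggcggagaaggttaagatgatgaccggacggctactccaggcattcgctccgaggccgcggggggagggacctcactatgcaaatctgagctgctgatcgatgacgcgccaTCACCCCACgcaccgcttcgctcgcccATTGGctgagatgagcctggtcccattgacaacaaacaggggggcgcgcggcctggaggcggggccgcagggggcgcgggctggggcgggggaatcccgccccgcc
MSMO1, plus strand, chr4:165327419-165327668: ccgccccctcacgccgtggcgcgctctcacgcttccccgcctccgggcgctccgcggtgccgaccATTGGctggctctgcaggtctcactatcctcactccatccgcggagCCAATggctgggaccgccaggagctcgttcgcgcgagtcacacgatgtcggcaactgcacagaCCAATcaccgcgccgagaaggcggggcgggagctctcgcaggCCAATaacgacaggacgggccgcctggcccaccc
LSS, minus strand, chr21:46228775-46229024: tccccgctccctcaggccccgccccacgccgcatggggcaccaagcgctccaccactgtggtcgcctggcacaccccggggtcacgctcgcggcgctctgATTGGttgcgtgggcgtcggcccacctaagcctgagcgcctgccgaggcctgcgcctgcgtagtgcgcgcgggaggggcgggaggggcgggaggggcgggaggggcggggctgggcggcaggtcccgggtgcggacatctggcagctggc
INSIG1, plus strand, chr7:155297628-155297877: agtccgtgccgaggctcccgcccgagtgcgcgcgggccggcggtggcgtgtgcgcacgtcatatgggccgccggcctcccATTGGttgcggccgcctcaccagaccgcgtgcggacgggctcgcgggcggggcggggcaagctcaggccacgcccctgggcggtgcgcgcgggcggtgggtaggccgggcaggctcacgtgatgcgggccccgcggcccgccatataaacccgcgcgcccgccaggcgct
The MSMO1 window holds 4 CCAAT matches and the other windows hold 1 each. Among all members with a promoter sequence, those that rose at 72 h held 0 (IDI1, INSIG2 and FADS1) to 4 (MSMO1) matches. Those that fell held 0 (for example AACS) to 5 (MVK and NSDHL). Any link between the number of matches and the direction was not tested. In SREBF2 the sterol element begins 133 bases before the start and the CCAAT match 106 bases before it.

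Total counts ran from 8735465 to 22121364 per library. The shallowest, toyocamycin 10 h replicate 2, stood apart: 6.55% of its counts came from mitochondrially encoded genes against 0.917% to 3.49% in the others, so its values are given separately at 10 h. A 10 h comparison without it sets 1 toyocamycin library of the first batch against the DMSO library of the second. Treatment and batch cannot be told apart there. Levels are CPM, counts scaled to a common library total, after edgeR's TMM scaling. Of the 10 colon epithelium markers, EPCAM, CDH1, KRT8 and CDX2 were abundant in DMSO while KRT20, CDX1 and LGALS4 were at or near 0. Their summed level was 1760 to 6931 CPM over the DMSO libraries and 532 to 563 CPM on toyocamycin at 72 h, where 6 of the 8 tested were lower and 2 higher (41.9% and 47.0% of all genes). At 10 h it was 4363 and 5144 CPM against 1760 in DMSO. Summed markers of fibroblasts (4 genes) were at 0.372 to 11.6 CPM in DMSO, and on toyocamycin at 0.5 and 18.1 CPM at 10 h and 2.06 to 20.9 CPM at 72 h. At 72 h, where DMSO held 0.372 to 0.941 CPM, 4 of 4 were higher (47.0% of all genes), with libraries unlike in level. Summed markers of endothelium (3 genes) stayed at or below 12.3 CPM and those of leukocytes (3 genes) lower than that in every library, with both maxima on toyocamycin at 10 h. The part of these shifts in the results below was not tested. In bulk RNA, fewer cells of a kind and less RNA per cell cannot be told apart.

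At the last time point most of the lipid synthesis genes were lower on toyocamycin. The sterol genes IDI1, MSMO1, HSD17B7 and INSIG1 rose against them, by 3.62-fold to 6.68-fold. Of the 36 genes with enough counts to test (all but ABCA1), 27 fell and 6 rose at 72 h (edgeR quasi-likelihood test, adjusted p under 0.1), which is 75% and 16.7% of them, where 41.9% of all 14491 genes tested fell and 47.0% rose. The median log2 fold change was -1.38 over the 36 genes and 0.18 over all genes. Fatty acid synthase (FASN) fell 9.77-fold and lanosterol synthase (LSS) 18.2-fold, while the sterol demethylation enzymes MSMO1 and HSD17B7 rose 5.26-fold and 6.68-fold. At 2 h none of the 36 passed the edgeR test, where 0.518% of all genes rose and 8.42% fell; at an unadjusted p under 0.05 there were 0 higher and 2 lower, HMGCS1 and INSIG1, and DESeq2 called 0 higher and 1 lower. The replicate numbers of 2 h mark the labelled batches, and with them as a block the same 2 genes fell (9.80% of all genes fell and 0.842% rose in that fit). At 10 h, 4 rose and 9 fell of 37, against 20.4% and 24.4% of all 16521 genes tested. That fit tested more genes than the 14491 of the other times, ABCA1 among them, so its background is not the same set. At 24 h and 48 h there was 1 library per arm and no test: 2 and 4 of 36 genes were higher by a log2 fold change of 1 or more (29.7% and 38.1% of all genes), and 16 and 19 were lower (27.8% and 29.9%). The split between higher and lower moved with the scaling before 72 h: with mitochondrial counts as the scale 0 rose and 17 fell at 10 h, and 0 and 1 genes were higher and 35 and 31 lower at 24 h and 48 h.

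The size of the effect differed between the first and last time points for most members. Taken as the effect at 72 h minus the effect at 2 h and tested in the same fit, 25 of 36 moved down and 7 moved up, against 38.1% and 38.0% of all genes. Within pairs of the same replicate number, the median difference of the members was 0.03 and 0.05 at 2 h in the first and the second batch. At 72 h each library was of the first batch and the replicate numbers do not pair the libraries. Libraries matched by number there, an arbitrary matching, gave -1.37, -1.32 and -1.20. The heat map of fold changes shows the order in which the groups moved.

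**Figure D1:**
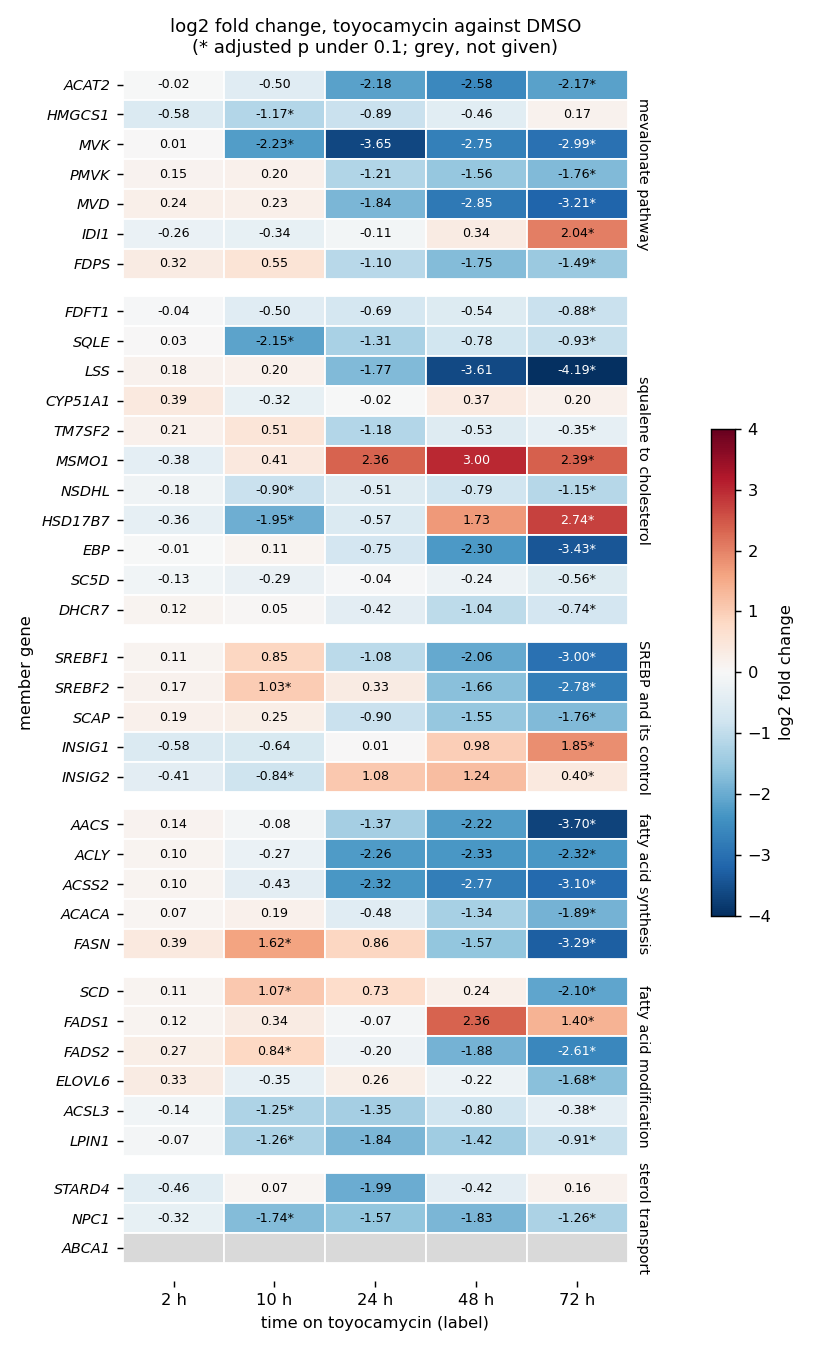
Log2 fold change of toyocamycin against DMSO for each gene (rows, grouped by role) at each labelled time (columns); red is higher on toyocamycin, blue lower, and a star marks an adjusted p under 0.1 (24 h and 48 h have 1 library per arm and no test). The columns turn from near 0 at 2 h to mostly blue at 72 h, where the 6 genes that rose are red, though IDI1, MSMO1, HSD17B7, INSIG1 and INSIG2 were below 0 at 2 h; ABCA1 is grey because no fold change is given for it (tested at 10 h only, on few counts).

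The SREBP genes and their escort fell late, while INSIG1 rose. In DMSO, SREBF2 measured 159 and 139 CPM at 2 h, then 139 at 10 h, 174 at 24 h, 177 at 48 h and finally 186, 191 and 158 at 72 h. On toyocamycin, SREBF2 measured 176 and 158 CPM at 2 h, then 310 and 258 at 10 h, 216 at 24 h, 54.8 at 48 h and finally 20.4, 28.4 and 27.4 at 72 h. Both 10 h values and that of 24 h lay above every DMSO library, and the 48 h and 72 h values lay below all of them. SREBF2 was 2.04-fold higher at 10 h (edgeR log2 fold change 1.03 ± 0.26 SE, adjusted p = 0.0054) and 6.85-fold lower at 72 h, with 25.4 ± 4.31 CPM against 178 ± 17.7 (SD, n = 3; log2 fold change -2.78 ± 0.15, adjusted p = 1.4e-10). The rise at 10 h held without either toyocamycin library (log2 fold change 0.89 and 1.16) but turned to -0.09 when the libraries were scaled on mitochondrial counts. Its untested 24 h difference of 0.33 turned to -0.68 with library size alone and to -1.94 with mitochondrial scaling.

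SREBF1 varied more between control libraries. In DMSO, SREBF1 measured 193 and 110 CPM at 2 h, then 64.5 at 10 h, 90.6 at 24 h, 162 at 48 h and finally 233, 227 and 156 at 72 h. On toyocamycin, SREBF1 measured 204 and 123 CPM at 2 h, then 160 and 72.5 at 10 h, 42.3 at 24 h, 38.2 at 48 h and finally 18.4, 23.9 and 33 at 72 h. From 24 h on every treated value lay below every DMSO value. The 72 h fall was 7.97-fold (log2 fold change -3.00 ± 0.27 SE, edgeR adjusted p = 4.75e-08). Its 10 h difference of 0.85 did not pass (edgeR adjusted p = 0.167). It did pass with DESeq2 size factors and without the low-count filter. The value was 1.31 without the shallow library, a comparison across the 2 batches, and 0.17 without the other toyocamycin library, within the second batch.

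SCAP, the escort, did not pass at 10 h (log2 fold change 0.25, edgeR adjusted p = 0.434). In DMSO, SCAP measured 179 and 155 CPM at 2 h, then 167 at 10 h, 157 at 24 h, 219 at 48 h and finally 200, 201 and 150 at 72 h. On toyocamycin, SCAP measured 203 and 180 CPM at 2 h, then 235 and 163 at 10 h, 83.6 at 24 h, 73.6 at 48 h and finally 48.3, 56.2 and 55.1 at 72 h. The groups overlapped at 10 h and were apart at 72 h, where SCAP was 3.38-fold lower (log2 fold change -1.76 ± 0.15 SE, edgeR adjusted p = 1.5e-08).

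INSIG1 moved the other way. In DMSO, INSIG1 measured 26.9 and 24.8 CPM at 2 h, then 23 at 10 h, 46.1 at 24 h, 27 at 48 h and finally 37.3, 34.6 and 38.5 at 72 h. On toyocamycin, INSIG1 measured 20.3 and 14.1 CPM at 2 h, then 19.8 and 9.28 at 10 h, 45.9 at 24 h, 52.5 at 48 h and finally 113, 156 and 121 at 72 h. Its treated values at 2 h and 10 h lay below all 8 DMSO libraries and those at 72 h above all of them. At 2 h the log2 fold change was -0.58 ± 0.20 (SE, edgeR adjusted p = 0.107), and with the replicate block -0.60 (adjusted p = 0.0363). At 10 h it was -0.64 (adjusted p = 0.143), and it passed with the replicate block (-1.31, adjusted p = 0.000179), which at that time rests on the shallow library alone; without that library it was -0.21 (adjusted p = 0.575). At 72 h INSIG1 was 3.62-fold higher (1.85 ± 0.16, adjusted p = 2.55e-08), and the change in effect from 2 h to 72 h was 2.44 ± 0.25 (adjusted p = 4.39e-07).

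INSIG2 is the second SCAP anchor, and is not an SREBP target as INSIG1 is. In DMSO, INSIG2 measured 6.6 and 5.71 CPM at 2 h, then 11.4 at 10 h, 8.41 at 24 h, 10.5 at 48 h and finally 16.5, 17.6 and 21.5 at 72 h. On toyocamycin, INSIG2 measured 4.72 and 4.55 CPM at 2 h, then 8 and 4.53 at 10 h, 17.6 at 24 h, 24.4 at 48 h and finally 27.6, 20.5 and 23.7 at 72 h. The groups overlapped at 72 h, and the control level had itself risen. INSIG2 was 1.32-fold higher at 72 h (log2 fold change 0.40 ± 0.16 SE, edgeR adjusted p = 0.0315), a call that was lost without DMSO replicate 1 or toyocamycin replicate 1 of that time, and the sign turned to -0.20 with library size alone and -0.63 with mitochondrial scaling. Its fall at 10 h (-0.84 ± 0.30, adjusted p = 0.0383) did not pass without the shallow library (-0.51, adjusted p = 0.18).

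**Figure D2:**
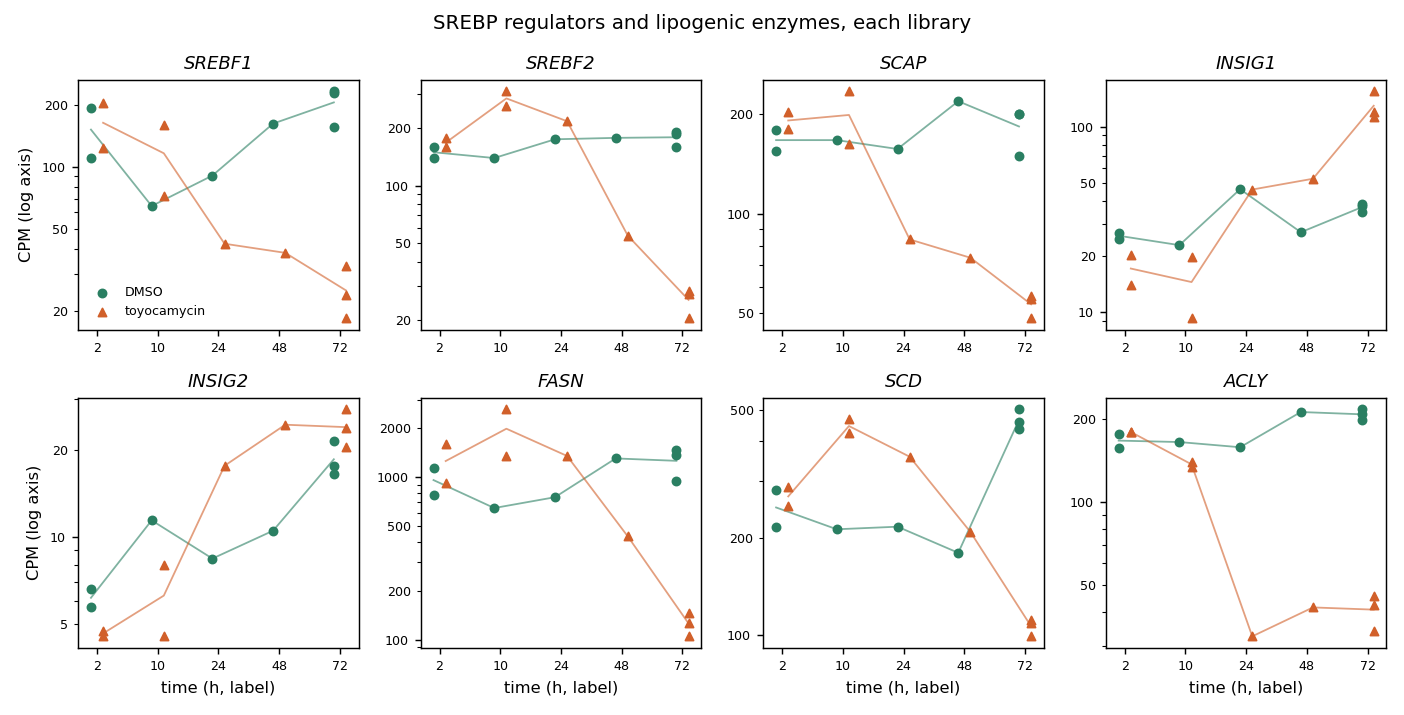
CPM on a log axis (vertical) at each labelled time (horizontal, evenly spaced) for 5 regulators and 3 lipogenic enzymes; green circles are DMSO libraries, orange triangles toyocamycin libraries, and lines join the group means. SREBF2, FASN and SCD sit above the 10 h control and then fall to 72 h, where the FASN libraries read 105, 127 and 146 CPM, while INSIG1 climbs to between 113 and 156 CPM.

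The mevalonate pathway turns acetyl-CoA into the isoprenoid units of sterols. Of its 7 measured genes 5 fell at 72 h, 1 rose and 1 did not pass, where 41.9% of all genes fell and 47.0% rose. At 10 h 2 of the 7 fell (28.6%), near the 24.4% of all genes. The 5 that fell were ACAT2 (acetoacetyl-CoA thiolase, log2 fold change -2.17), MVK and PMVK (the mevalonate kinases, -2.99 and -1.76), MVD (mevalonate diphosphate decarboxylase, -3.21) and FDPS (farnesyl diphosphate synthase, -1.49), each with its 3 treated libraries below all 8 DMSO libraries. MVK was the only one of these 5 to fall at 10 h, with 4.14 and 4.86 CPM at 10 h against 20.9 (4.68-fold lower, edgeR adjusted p = 4.53e-05), and 2.41 CPM against 30.5 at 24 h. FDPS has 8 annotated pseudogenes and shares 18.6% of its exon bases with an antisense RNA, and ACAT2 shares 17.2% with TCP1, so their counts are less certain.

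HMGCS1, the HMG-CoA synthase that feeds the pathway, dipped and came back. In DMSO, HMGCS1 measured 19.5 and 24.2 CPM at 2 h, then 20.5 at 10 h, 29 at 24 h, 17.6 at 48 h and finally 15.9, 17.5 and 20.9 at 72 h. On toyocamycin, HMGCS1 measured 13.3 and 15.9 CPM at 2 h, then 10.1 and 7.96 at 10 h, 15.5 at 24 h, 12.6 at 48 h and finally 20.6, 17.5 and 21.8 at 72 h. The groups did not overlap at 2 h or 10 h and did at 72 h. At 10 h it was 2.25-fold lower (log2 fold change -1.17 ± 0.25 SE, edgeR adjusted p = 0.00212), and at 72 h the difference was 0.17 ± 0.16 (adjusted p = 0.329), with a sign that turned under library size alone (-0.43) and mitochondrial scaling (-0.86). At 2 h the value was -0.58 ± 0.20 (adjusted p = 0.11), and -0.58 with the replicate block (adjusted p = 0.0489). An antisense noncoding RNA shares 37.7% of its exon bases.

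IDI1, the isomerase that makes dimethylallyl diphosphate, was the only gene of the 7 to rise at 72 h. In DMSO, IDI1 measured 21.5 and 20.6 CPM at 2 h, then 20 at 10 h, 29.2 at 24 h, 23.1 at 48 h and finally 18.4, 15.4 and 21.9 at 72 h. On toyocamycin, IDI1 measured 16.5 and 18.7 CPM at 2 h, then 20.2 and 10.9 at 10 h, 26.8 at 24 h, 28.7 at 48 h and finally 83.2, 74.9 and 65.7 at 72 h. Each 72 h library lay above all DMSO libraries, a 4.11-fold rise (log2 fold change 2.04 ± 0.16 SE, edgeR adjusted p = 5.87e-09). At 10 h its -0.34 did not pass (adjusted p = 0.35) and passed with the replicate block (-0.87, adjusted p = 0.0103), which rests on the shallow library, without which it was 0.02. It has 3 pseudogenes, and IDI2-AS1 shares 15% of its exon bases on the opposite strand.

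From squalene to cholesterol, 8 of 11 enzymes fell at 72 h, 2 rose, and CYP51A1 did not pass (log2 fold change 0.20 ± 0.31 SE, edgeR adjusted p = 0.549; it passed at 0.67 without DMSO replicate 1, its sign turned to -0.40 with library size alone and -0.98 under mitochondrial scaling, and models on the same strand share up to 68.2% of its exon bases). Over all genes 41.9% fell and 47.0% rose at that time. The falls of these enzymes were not of 1 size. LSS and EBP (sterol isomerase) fell 18.2-fold and 10.8-fold, while FDFT1 (squalene synthase), SQLE, NSDHL, DHCR7 (the last reductase of the pathway), SC5D and TM7SF2 had log2 fold changes between -0.35 and -1.15. Of these TM7SF2 (-0.35 ± 0.17, adjusted p = 0.068) lost its call when any 1 of 3 libraries was left out (DMSO replicates 1 and 2 and toyocamycin replicate 1).

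SQLE, squalene epoxidase, opens the oxygen-dependent part of the pathway. In DMSO, SQLE measured 35.2 and 37.5 CPM at 2 h, then 47.9 at 10 h, 57 at 24 h, 38.6 at 48 h and finally 35, 35.4 and 33.2 at 72 h. On toyocamycin, SQLE measured 36.5 and 37.8 CPM at 2 h, then 10.6 and 11.1 at 10 h, 22.8 at 24 h, 22.1 at 48 h and finally 17.7, 18.3 and 17.3 at 72 h. Every treated library from 10 h on lay below all DMSO libraries, with the lowest values at 10 h. The fall was 4.43-fold at 10 h (log2 fold change -2.15 ± 0.19 SE, edgeR adjusted p = 1.47e-06) and 1.9-fold at 72 h (-0.93 ± 0.13, adjusted p = 4.5e-06); the difference between these times was not tested.

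LSS, which closes squalene epoxide into the first sterol ring system, followed another course. In DMSO, LSS measured 129 and 117 CPM at 2 h, then 102 at 10 h, 133 at 24 h, 151 at 48 h and finally 114, 108 and 87 at 72 h. On toyocamycin, LSS measured 147 and 130 CPM at 2 h, then 131 and 105 at 10 h, 38.8 at 24 h, 12.1 at 48 h and finally 6, 5 and 5.56 at 72 h. It was within the control range at 10 h, when SQLE was at its lowest, and below every control from 24 h on. At 72 h LSS averaged 5.52 ± 0.497 CPM against 103 ± 14.1 (SD, n = 3; log2 fold change -4.19 ± 0.16, edgeR adjusted p = 3.37e-12), the lowest fold change of the 36 genes. EBP had the same shape at a lower level.
In DMSO, EBP measured 15.3 and 9.82 CPM at 2 h, then 11.5 at 10 h, 11.5 at 24 h, 14.7 at 48 h and finally 14.3, 14.2 and 14.6 at 72 h. On toyocamycin, EBP measured 12.4 and 12.7 CPM at 2 h, then 15.2 and 9.28 at 10 h, 6.74 at 24 h, 2.93 at 48 h and finally 1.08, 1.76 and 1.04 at 72 h (log2 fold change at 72 h -3.43 ± 0.25 SE, edgeR adjusted p = 3.79e-09). Another coding model shares 36.4% of its exon bases on the same strand.

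MSMO1, NSDHL and HSD17B7 act in turn to strip the methyl groups from carbon 4 of the sterol ring, and they did not move together. In DMSO, MSMO1 (the methyl oxidase) measured 19.3 and 22.2 CPM at 2 h, then 22.1 at 10 h, 30.4 at 24 h, 18.6 at 48 h and finally 21.5, 20.8 and 27.2 at 72 h. On toyocamycin, MSMO1 measured 14.5 and 17.2 CPM at 2 h, then 36.1 and 22.4 at 10 h, 154 at 24 h, 146 at 48 h and finally 135, 115 and 107 at 72 h. From 24 h on all 5 treated libraries lay above every DMSO library, by a log2 fold change of 2.39 ± 0.15 (SE) at 72 h (edgeR adjusted p = 5.94e-10). Its untested 24 h difference of 2.36 was 1.34 with library size alone and 0.09 with mitochondrial scaling. That of 48 h, 3.00, was 2.39 and 1.16 in the same order.
HSD17B7, the ketone reductase of the same step, fell first and then rose. In DMSO, HSD17B7 measured 5.26 and 5.09 CPM at 2 h, then 4.68 at 10 h, 6.58 at 24 h, 3.37 at 48 h and finally 3.37, 3.72 and 5.06 at 72 h. On toyocamycin, HSD17B7 measured 4.18 and 3.85 CPM at 2 h, then 1.36 and 0.995 at 10 h, 4.4 at 24 h, 11 at 48 h and finally 23.8, 29.8 and 26.1 at 72 h. The 10 h libraries lay below all controls (log2 fold change -1.95 ± 0.34 SE, edgeR adjusted p = 0.00038) and those of 72 h above them (2.74 ± 0.19, adjusted p = 1.98e-09), the highest fold change of the 36 genes. Its 2 annotated pseudogenes make these counts less certain. NSDHL, the dehydrogenase between them, fell at both times (-0.90 at 10 h and -1.15 at 72 h).

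The sum over the sterol enzymes hid these opposite moves. The 18 enzymes from ACAT2 to DHCR7 summed to 635 to 844 CPM over the DMSO libraries and to 475 to 532 CPM on toyocamycin at 72 h. LSS made up 13.7% to 19.9% of that sum in DMSO and 0.94% to 1.17% at 72 h on toyocamycin. MSMO1 went from 2.45% to 4.28% of it in DMSO to 21.7% to 26.4%, and IDI1 from 2.16% to 3.46% to 13.8% to 16.3%. These shares are ratios within a library and do not change with the scaling between libraries.

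**Figure D3:**
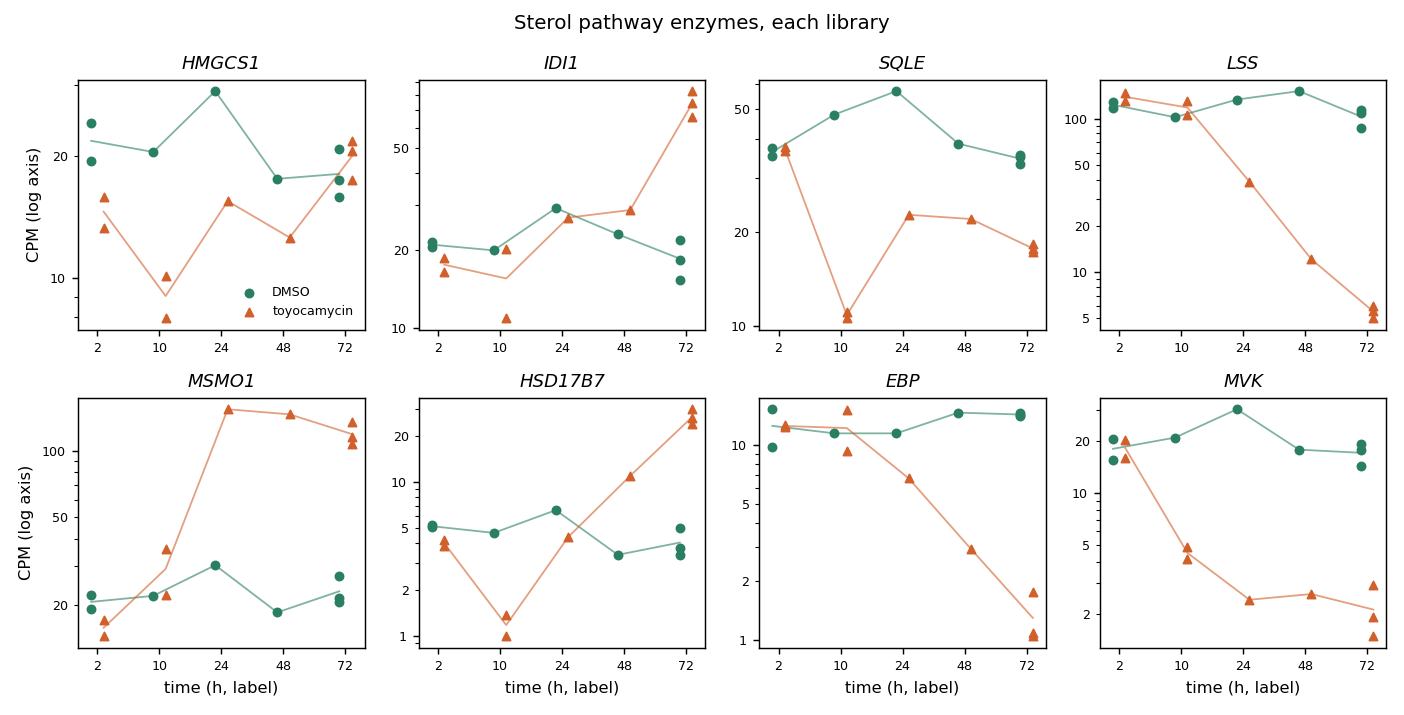
CPM on a log axis (vertical) at each labelled time (horizontal, evenly spaced) for 8 sterol enzymes, with DMSO libraries as green circles, toyocamycin libraries as orange triangles and lines through the group means. SQLE and MVK are down by 10 h (10.6 and 11.1 CPM for SQLE), LSS and EBP fall from 24 h on, and MSMO1 is at 154 CPM by 24 h, ahead of HSD17B7 and IDI1.

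**Figure D4:**
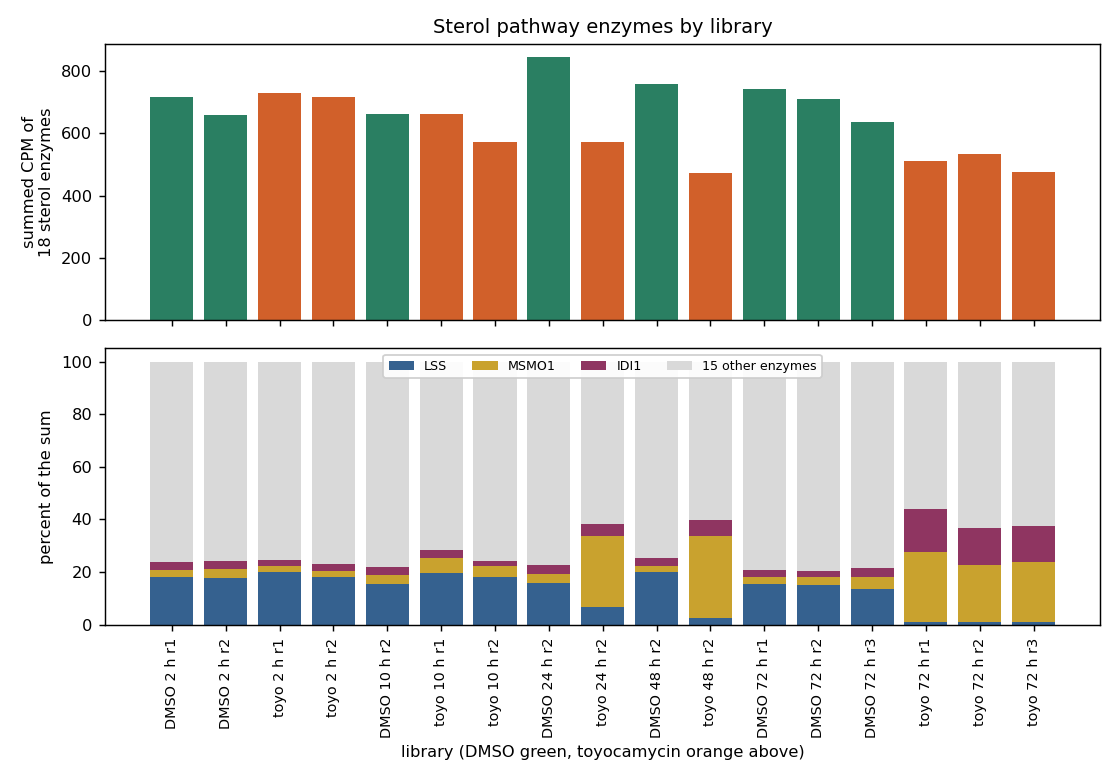
Summed CPM of 18 sterol enzymes in each library (top, bars from 0) and the percentage of that sum taken by LSS, MSMO1, IDI1 and the 15 others (bottom). The sum at 72 h on toyocamycin, 475 to 532 CPM, lies below the DMSO range, while MSMO1 and IDI1 replace LSS as the leading named share.

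The enzymes that supply acetyl-CoA and build palmitate all fell at 72 h, 5 of 5, where 41.9% of all genes fell. Their log2 fold changes ran from -1.89 to -3.70. FASN, which makes palmitate, had the highest level per transcript length of the 37 genes in DMSO, a median of 112 RPKM (the CPM divided by the exon length in kilobases), ahead of SCD with 47.6. In DMSO, FASN measured 1137 and 782 CPM at 2 h, then 646 at 10 h, 753 at 24 h, 1304 at 48 h and finally 1469, 1360 and 952 at 72 h. On toyocamycin, FASN measured 1590 and 923 CPM at 2 h, then 2617 and 1355 at 10 h, 1350 at 24 h, 432 at 48 h and finally 105, 127 and 146 at 72 h. The 10 h libraries both lay above the 10 h control, though only 1 of them lay above all controls of other times. FASN was 3.08-fold higher at 10 h (log2 fold change 1.62 ± 0.43 SE, edgeR adjusted p = 0.00817; 2.03 without the shallow library, 1.07 without the other, and 0.58 with adjusted p = 0.547 under mitochondrial scaling) and 9.77-fold lower at 72 h (-3.29 ± 0.24, adjusted p = 3.23e-09). The summed level of the 5 enzymes was 1102 to 1905 CPM in DMSO, 3026 and 1831 CPM on toyocamycin at 10 h, and 185 to 235 CPM at 72 h.

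ACLY, which makes cytosolic acetyl-CoA from citrate, did not pass at 10 h (log2 fold change -0.27, edgeR adjusted p = 0.315). In DMSO, ACLY measured 177 and 157 CPM at 2 h, then 165 at 10 h, 158 at 24 h, 212 at 48 h and finally 208, 217 and 199 at 72 h. On toyocamycin, ACLY measured 180 and 179 CPM at 2 h, then 134 and 140 at 10 h, 32.6 at 24 h, 41.5 at 48 h and finally 34.2, 42.5 and 45.5 at 72 h. Its values reached their lower level by 24 h, when FASN was above its control, a FASN difference whose sign turned under library size alone (-0.16) and mitochondrial scaling (-1.42). At 72 h ACLY was 4.98-fold lower (log2 fold change -2.32 ± 0.13 SE, edgeR adjusted p = 2.52e-10). ACSS2, which makes acetyl-CoA from acetate, was also lower (-2.32 at 24 h, without a test, and -3.10 at 72 h).

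ACACA, the acetyl-CoA carboxylase that commits carbon to fatty acids, fell later. In DMSO, ACACA measured 133 and 159 CPM at 2 h, then 182 at 10 h, 133 at 24 h, 140 at 48 h and finally 127, 137 and 146 at 72 h. On toyocamycin, ACACA measured 154 and 153 CPM at 2 h, then 176 and 240 at 10 h, 94.4 at 24 h, 54.3 at 48 h and finally 36.8, 36.2 and 35.5 at 72 h. At 72 h it was 3.7-fold lower, with no overlap (-1.89 ± 0.12 SE, edgeR adjusted p = 9.64e-10). AACS, which activates acetoacetate for lipid synthesis, had the lowest fold change of the group.
In DMSO, AACS measured 71.6 and 66 CPM at 2 h, then 78.1 at 10 h, 81.1 at 24 h, 80.7 at 48 h and finally 74, 75.7 and 74.8 at 72 h. On toyocamycin, AACS measured 73.6 and 78.5 CPM at 2 h, then 75 and 72.8 at 10 h, 31.2 at 24 h, 17 at 48 h and finally 5.41, 7.13 and 4.35 at 72 h. Its treated values lay among the controls through 10 h, and it was 13-fold lower at 72 h (-3.70 ± 0.17 SE, edgeR adjusted p = 1.57e-11).

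Among the 6 enzymes that desaturate, elongate or activate fatty acids or dephosphorylate phosphatidate, 5 fell at 72 h and 1 rose, and at 10 h 2 rose and 2 fell. Over all genes 41.9% fell and 47.0% rose at 72 h, and 24.4% fell and 20.4% rose at 10 h. SCD, the stearoyl-CoA desaturase, rose and then fell. In DMSO, SCD measured 216 and 282 CPM at 2 h, then 213 at 10 h, 217 at 24 h, 180 at 48 h and finally 436, 459 and 503 at 72 h. On toyocamycin, SCD measured 251 and 288 CPM at 2 h, then 423 and 469 at 10 h, 358 at 24 h, 209 at 48 h and finally 111, 99 and 109 at 72 h. The 10 h values were above the 10 h control but not above the 503 CPM that a control reached at 72 h. SCD was 2.09-fold higher at 10 h (log2 fold change 1.07 ± 0.24 SE, edgeR adjusted p = 0.00288; -0.09 under mitochondrial scaling) and 4.28-fold lower at 72 h (-2.10 ± 0.14, adjusted p = 9.54e-10).

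The genes FADS1 and FADS2, whose desaturases act in the same polyunsaturated pathway, overlap on chromosome 11, the FADS1 model within that of FADS2 (chr11:61799627-61829318 on the minus strand and chr11:61792980-61867354 on the plus strand, GRCh38, GENCODE v44 gene models) and moved apart at 72 h. FADS1 was measured at 1.39 ± 0.174 CPM in DMSO and 3.59 ± 0.52 CPM on toyocamycin (SD, n = 3; log2 fold change 1.40 ± 0.28, edgeR adjusted p = 0.00024), a level at which 15 to 56 counts stood behind each DMSO value. FADS2 fell from 12.5 ± 2.88 to 1.97 ± 0.775 CPM (-2.61 ± 0.27, adjusted p = 2.16e-07), after a rise at 10 h (0.84 ± 0.36, adjusted p = 0.0798) that did not pass without the shallow library (0.52, adjusted p = 0.288) and turned to -0.37 under mitochondrial scaling. Their annotated exons overlap by 490 bases on opposite strands, and the strand setting of the counts is not given in the sources used here. ELOVL6, the elongase of palmitate, fell at 72 h (-1.68), and so did LPIN1, a phosphatidate phosphatase (-1.26 at 10 h and -0.91 at 72 h), and ACSL3, which activates fatty acids (-1.25 and -0.38). The ACSL3 call at 72 h was lost without DMSO replicate 3 or toyocamycin replicate 2.

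Of the cholesterol carriers 2 could be tested at 72 h, and NPC1 fell. It exports cholesterol from lysosomes. In DMSO, NPC1 measured 31.8 and 31.2 CPM at 2 h, then 44.2 at 10 h, 34.2 at 24 h, 39.8 at 48 h and finally 39.4, 38 and 36.8 at 72 h. On toyocamycin, NPC1 measured 22.8 and 27.6 CPM at 2 h, then 13.6 and 12.8 at 10 h, 11.4 at 24 h, 11 at 48 h and finally 13.5, 16.9 and 16.2 at 72 h. All 9 treated libraries lay below all 8 controls, and NPC1 was 3.34-fold lower at 10 h (-1.74 ± 0.21 SE, edgeR adjusted p = 1.54e-05) and 2.4-fold lower at 72 h (-1.26 ± 0.14, adjusted p = 6.76e-07). The 2 h value of -0.32 did not pass (adjusted p = 0.407).
ABCA1, which exports cholesterol from the cell and is a target of the sterol receptor LXR, was close to unmeasured. In DMSO, ABCA1 had 0 counts in 5 libraries and 1, 4 and 1 counts in those of 10 h (replicate 2) and 72 h (replicates 2 and 3). On toyocamycin, ABCA1 had 7 and 0 counts at 2 h, then 1 and 63 at 10 h, none at 24 h and 48 h, and finally 1, 3 and 0 at 72 h. Only the shallow library held more than 7 counts (6.96 CPM), and the 10 h comparison did not pass (edgeR adjusted p = 0.147), though it did with the replicate block (adjusted p = 0.000583), which rests on that library. STARD4, a cytosolic sterol carrier, did not pass at 72 h (0.16 ± 0.20 SE, adjusted p = 0.472), with a sign that turned under library size alone (-0.44) and mitochondrial scaling (-0.89).

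Calls at 10 h and at 72 h rest on different control libraries and can be set side by side. All 4 genes that rose at 10 h (SREBF2, FASN, SCD and FADS2) were among the 27 that fell at 72 h. That is 100% of the first list and 14.8% of the second, where 75% of all tested members and 41.9% of all genes fell. Of the 9 that fell at 10 h, 6 fell at 72 h as well (66.7% and 22.2%), HSD17B7 and INSIG2 rose, and HMGCS1 did not pass. The same overlaps were not counted over all genes, so they are not shown to be particular to the members. The 10 h comparison has 1 DMSO library, and its direction for SREBF2, SCD and FADS2 turned under mitochondrial scaling, while that of FASN and of the 9 falls kept its sign under the 4 scalings tried, FASN without passing under the mitochondrial one.

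Some members also moved in DMSO alone between 2 h and 72 h, so the control is not a flat line. Of the 36 tested, 4 rose and 2 fell (11.1% and 5.56%), against 10.2% and 11.4% of all genes. The rises were thus near the share of all genes and the falls below it. INSIG2 went from 6.16 ± 0.636 (n = 2) to 18.6 ± 2.6 CPM (SD, n = 3; log2 fold change 1.59 ± 0.19, edgeR adjusted p = 7.1e-05), SCD from 249 ± 46.5 to 466 ± 34 CPM (0.90 ± 0.15, adjusted p = 0.000984), and FADS2 and INSIG1 rose by 0.84 and 0.51. LPIN1 and SC5D fell (-0.67 and -0.61). With batch as a term INSIG1 (0.24, adjusted p = 0.573) and SC5D (-0.31, adjusted p = 0.29) did not pass, and the sign of SC5D turned under mitochondrial scaling (0.19). INSIG1 also lost its call when any 1 of the 5 libraries was left out, SC5D without DMSO replicate 2 of 2 h or replicate 1 or 2 of 72 h, FADS2 without replicate 1 of 2 h or replicate 1 or 2 of 72 h, and LPIN1 without replicate 1 of 2 h.

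Other lists of lipid genes give the setting at 72 h, when 47.0% of all genes rose and 41.9% fell. In all, 3 lists lay near those shares: of 17 other sterol and isoprenoid enzymes tested 9 rose and 7 fell (52.9% and 41.2%), of 22 SREBP proteases and proteins of sterol sensing and degradation in the endoplasmic reticulum 12 rose and 9 fell (54.5% and 40.9%), and of 11 genes of LXR and its targets 5 rose and 5 fell (45.5% each). Of 15 proteins of sterol uptake and transport 3 rose and 10 fell (66.7%). On the fatty acid side, 15 of 21 other elongation, desaturation and activation genes fell and 5 rose, as did 16 and 4 of 21 genes of triglyceride and phospholipid synthesis (71.4% and 76.2% fell). Fatty acid oxidation genes fell too, 21 of 23 (91.3%) with 2 rising, at a median log2 fold change of -2.18. In the lipid droplet and lipolysis list 7 of 13 rose (53.8%) and 4 fell (30.8%), with a median of 1.35. At 2 h these 8 lists held between 0 and 3 falling genes each and none that rose by the edgeR test (8.42% and 0.518% of all genes).

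The direction of the late change depended little on how libraries were scaled, and the size more. With the median of all genes at 72 h at 0.18 (TMM), 0.50 (DESeq2 size factors), -0.42 (library size alone) and -0.89 (mitochondrial counts), the median of the 36 members was -1.38, -1.05, -1.98 and -2.49, below the median of all genes each time. The counts of members higher and lower at 72 h were 6 and 27, 8 and 24, 5 and 29, and 3 and 30 in the same order. Each of the 27 falls, and the rises of IDI1, MSMO1, HSD17B7, INSIG1 and FADS1, kept their sign under all 4 scalings, and INSIG2 did not. Under mitochondrial scaling INSIG1 (0.75) and FADS1 (0.30) no longer passed at 72 h, and with DESeq2 size factors ACSL3, SC5D and TM7SF2 did not pass while HMGCS1 and STARD4 did. Over all genes the same scalings gave 6804 higher and 6065 lower, 7447 and 5379, 5657 and 7297, and 4204 and 7362.

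**Figure D5:**
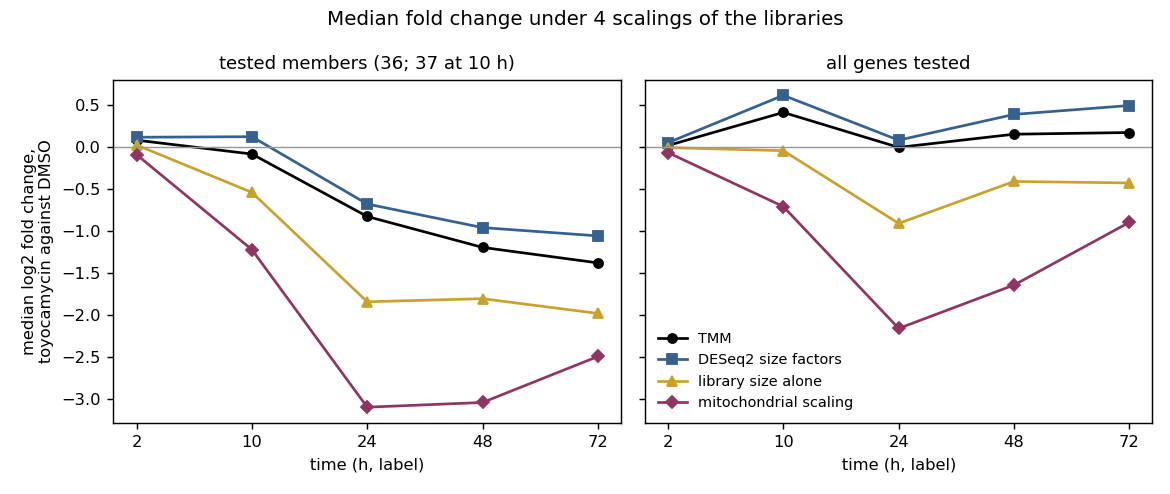
Median log2 fold change of toyocamycin against DMSO (vertical) at each labelled time (horizontal, evenly spaced) for the tested members (left) and all genes tested (right) under 4 ways of scaling the libraries. From 10 h on the members' median lies below that of all genes under each scaling, at -0.08 against 0.42 at 10 h and -1.38 against 0.18 at 72 h with TMM. The 10 h medians are over a larger set of genes, 16521 against 14491. On the smaller set, the replicate 2 pair of 10 h had a median log2 CPM difference of -0.12 for the members and 0.04 for all genes.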

How the data were processed

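The deposited counts are whole read counts per gene, made by the authors with STAR 2.7.5a (gene counting, GRCh38, Ensembl 100) and neither normalized nor pooled; the strand column is not given in the sources used here. The extraction protocol speaks of biological triplicates. One column of the count table matches no labelled sample and was not used. The authors' own table of fold changes and p-values was not used.

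Counts were tested with edgeR 4.0.16 (R 4.3.3) in the quasi-likelihood form of the authors' release: filterByExpr, TMM, 1 group per treatment and time, Benjamini-Hochberg adjustment over all genes tested, called at an adjusted p under 0.1. The first fit took the 14 libraries of 2, 24, 48 and 72 h (14491 genes, 6 residual degrees of freedom), since the shallow 10 h library stood apart; 10 h was fitted on all 17 (16521 genes, 7 degrees of freedom). At 24 and 48 h genes were counted at a log2 fold change of 1 and no p is given. SE is the size of the log2 fold change divided by the square root of the F statistic. CPM use TMM factors of all 17 libraries; RPKM use GENCODE v44 exon lengths. Symbols were matched for 19080 of 19141 genes. All members were accounted for, with every library printed for the SREBP regulators, enzymes that gate a branch, NPC1 and ABCA1, and the 4 highest and 4 lowest fold changes among called, non-overlapping members at 72 h. Members and lists were chosen with earlier results of these data known. At 2 h replicate numbers pair the libraries, because they mark the labelled batches (same-number deviations correlated at 0.307); at 72 h they do not (-0.105, 0.0427 and -0.0876). Alternatives were DESeq2 1.42.0, edgeR 4's own form, 3 other scalings, no filter, a minimum fold change of 1.5, a batch term, a replicate block and each library left out. Scripts were tested on simulated counts.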

Additional observations from a re-analysis of the deposited data

Results flagged for a closer look

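The effect of toyocamycin differed between 72 h and 2 h for 32 members by the test of the difference itself in the edgeR fit, where it did so for 38.1% of all genes downward and 38.0% upward; the values are log2 effects at 72 h minus those at 2 h. In the mevalonate pathway it was -2.15 for ACAT2, 0.76 for HMGCS1, -2.99 for MVK, -1.92 for PMVK, -3.45 for MVD, 2.29 for IDI1 and -1.80 for FDPS. From squalene to cholesterol it was -0.84 for FDFT1, -0.96 for SQLE, -4.36 for LSS, -0.56 for TM7SF2, 2.78 for MSMO1, -0.97 for NSDHL, 3.10 for HSD17B7, -3.43 for EBP and -0.86 for DHCR7. Among the regulators it was -3.11 for SREBF1, -2.94 for SREBF2, -1.95 for SCAP, 2.44 for INSIG1 and 0.81 for INSIG2. In fatty acid synthesis it was -3.85 for AACS, -2.42 for ACLY, -3.20 for ACSS2, -1.96 for ACACA and -3.68 for FASN. The modifying enzymes gave -2.21 for SCD, 1.28 for FADS1, -2.88 for FADS2, -2.01 for ELOVL6 and -0.84 for LPIN1, and NPC1 gave -0.94. Under mitochondrial scaling the signs of HMGCS1 (-0.18) and INSIG2 (-0.05) turned, and with library size alone neither passed (adjusted p = 0.495 and 0.427 in edgeR). FADS1 did not pass with library size alone (0.73, adjusted p = 0.144) or mitochondrial scaling (0.23, adjusted p = 0.87). TM7SF2 (adjusted p = 0.076) did not pass with DESeq2 size factors (-0.27) or without any 1 of 5 libraries: DMSO replicate 2 of 2 h (-0.34), DMSO replicates 1 and 2 of 72 h (-0.48 and -0.50), and toyocamycin replicate 1 of 2 h (-0.43) or of 72 h (-0.41). At a minimum fold change of 1.5 HMGCS1, INSIG2, LPIN1 and TM7SF2 did not pass. CYP51A1, SC5D, ACSL3 and STARD4 did not pass. No group held the 4 libraries that a search for single outlying libraries needs.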

How the results depend on the processing

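Over the refits, 141 counts of members higher or lower stayed within 1.5 times the value given and 29 left that range. Each direction and comparison of a refit was counted separately. The counts that left the range were as follows. Lower at 2 h, 0 as given: 1 by DESeq2, 1 with a batch term, 2 with library size alone, 1 without the filter, 2 with the replicate block, and 0 to 1 with a library left out. At 10 h, 4 higher and 9 lower as given: 8 higher with DESeq2 size factors, 18 lower with library size alone, and 0 higher and 17 lower with mitochondrial scaling. At 24 h, 2 higher and 16 lower as given: 1 and 30 with library size alone, 0 and 35 with mitochondrial scaling. At 48 h, 4 and 19 as given, and at 72 h 6 higher as given: 1 and 31, and 3, with mitochondrial scaling. For the change from 2 h to 72 h, 7 up as given: 4 with library size alone and 4 with mitochondrial scaling. In DMSO, 4 higher and 2 lower as given: 1 and 0 at a minimum fold change of 1.5, 0 lower with mitochondrial scaling, 1 lower with a batch term, and 2 to 3 higher and 1 to 2 lower with a library left out. The causes were not tested.

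Signs turned as follows, on the log2 scale, among values called under either scaling. With library size alone, INSIG1 at 24 h was -1.01, and at 72 h HMGCS1 was -0.43, INSIG2 -0.20 and STARD4 -0.44. Values not called under it turned too, among them SREBF2 (-0.68), FASN (-0.16), SCD (-0.28) and ELOVL6 (-0.75) at 24 h, IDI1 (-0.27), SCD (-0.37) and CYP51A1 (-0.24) at 48 h, and CYP51A1 at 72 h (-0.40). With mitochondrial scaling, at 10 h FADS2 was -0.37, SCD -0.09 and SREBF2 -0.09; at 24 h ELOVL6 was -2.01, FASN -1.42, INSIG1 -2.26, INSIG2 -1.19, SCD -1.54 and SREBF2 -1.94; at 48 h CYP51A1 was -1.48, HSD17B7 -0.12, IDI1 -1.51, INSIG2 -0.61 and SCD -1.61; at 72 h CYP51A1 was -0.98, HMGCS1 -0.86, INSIG2 -0.63 and STARD4 -0.89. Under the same scaling the change from 2 h to 72 h was -0.18 for HMGCS1 and -0.05 for INSIG2, and SC5D in DMSO was 0.19.

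With 1 library per arm at 24 h and 48 h and 1 DMSO library at 10 h, the spread of those values was borrowed from other groups or is unknown; leaving out a library of a pair also assumes that the lone one varies like the rest. The replicate block, with numbers that pair the libraries at 2 h but not at 72 h, changed no call at 72 h; at 10 h, where it compares within replicate 2 only, it added falls of FDFT1 (-0.85), IDI1 (-0.87) and INSIG1 (-1.31), a rise of FDPS (0.76) and a call for ABCA1, and it added STARD4 (0.61) to the change from 2 h to 72 h. Low depth limits ABCA1 and FADS1.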
